A study of Mus musculus with 68 samples.

Results

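Bcl11a and Bcl11b are paralogous mouse genes that were chosen by their measured levels, since they showed the first and the third highest difference between E9.0 and E10.5 in wildtype pharyngeal arches. They are 2 of the 21948 genes in the deposited table, found by gene symbol (ENSMUSG00000000861 and ENSMUSG00000048251). The data are polyA RNA sequencing libraries of pharyngeal arch 1 (PA1, the arch that gives rise to the jaws) and pharyngeal arch 2 (PA2, the next arch toward the tail) dissected from single mouse embryos. All embryos were of the cross CBA/Ca/J x C57BL/10 and were labelled wildtype or Hoxa2-/-, the second being homozygous for loss of a homeobox gene that patterns PA2. Wildtype PA1 had 5, 5, 5 and 3 libraries at the embryonic stages E9.0, E9.5, then E10.0 and last E10.5, wildtype PA2 had 4, 4, 5 and 3, and each arch labelled Hoxa2-/- had 4, 5, 5 and 3. The labels name no treatment and no transgene, and an arch holds several tissues whose RNA is mixed in 1 library.

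BCL11A and BCL11B (also called CTIP1 and CTIP2) are zinc finger transcription factors that bind DNA and act mainly as repressors. They were found as partners of the COUP-TF nuclear receptors, recruit histone deacetylase complexes such as NuRD, and are also subunits of the BAF chromatin remodelling complex. BCL11A is best known for silencing fetal globin genes in red blood cells and for roles in B cells and neurons, and BCL11B for commitment of T cells and for cortical projection neurons. Bcl11b is also expressed in craniofacial mesenchyme and in the enamel-forming epithelium of teeth.

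Bcl11a lies on chr11:24078056-24174123 on the forward strand and Bcl11b on chr12:107910403-108003602 on the reverse strand (GRCm38, GENCODE M21). Because a level of paralogs means little if reads can be exchanged between them, their transcripts were compared with each other. The stretch below is coding sequence of 1 exon in each gene and holds their longest shared coding run, accctggagaaacacatgaaaaa, which is 23 bases long. Capitals mark the bases that differ. The Bcl11a stretch is chr11:24165014-24165163 on the forward strand, and the Bcl11b stretch is chr12:107915418-107915567 on the reverse strand.
Bcl11a: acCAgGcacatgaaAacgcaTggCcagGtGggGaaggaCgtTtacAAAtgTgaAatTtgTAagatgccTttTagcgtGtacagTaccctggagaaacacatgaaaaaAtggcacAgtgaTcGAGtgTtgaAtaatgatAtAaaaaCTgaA
Bcl11b: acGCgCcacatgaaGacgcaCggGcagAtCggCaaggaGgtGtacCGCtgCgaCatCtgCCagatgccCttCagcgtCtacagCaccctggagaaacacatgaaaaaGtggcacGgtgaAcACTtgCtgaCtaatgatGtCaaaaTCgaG
The stretches differ at 36 of 150 bases (76% identity), and 24 of the differences fall on the third base of a codon. No run of 50 bases was shared by the transcripts: 0 of 13170 such runs of Bcl11a occurred in Bcl11b, and 0 of 8156 runs of Bcl11b occurred in Bcl11a. A read that matches one exactly over at least 50 bases therefore does not match the other over them, while the read length is not given in the sources used here. The antisense genes Gm12064 and 4930538E20Rik overlap Bcl11a and have no row in the table, so antisense reads inside Bcl11a cannot be told apart from its own.

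The sequences before the annotated starts are shown because both genes changed together. RefSeq windows of 300 bases (GRCm38.p6) were searched on both strands for TGACCA (a reported BCL11A site), TGACAG (a Meis-type site), GGGCGG (a GC box) and CCAAT, and capitals mark matches. The part printed for Bcl11a, chr11:24080445-24080669 on the forward strand, lies before the start of a shorter transcript and inside an intron of longer ones. The part printed for Bcl11b, chr12:108003603-108003664 on the reverse strand, ends where the gene starts.
Bcl11a: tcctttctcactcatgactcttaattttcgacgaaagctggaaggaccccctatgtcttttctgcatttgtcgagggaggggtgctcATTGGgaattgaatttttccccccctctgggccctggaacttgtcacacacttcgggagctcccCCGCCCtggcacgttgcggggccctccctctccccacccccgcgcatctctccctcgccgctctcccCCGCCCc
Bcl11b: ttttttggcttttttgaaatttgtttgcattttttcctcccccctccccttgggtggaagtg
The Bcl11a window held 2 matches to GGGCGG and 1 to CCAAT (printed as the reverse complement), and none to the other letters. The Bcl11b window held none of them. GGGCGG was present in 35.7% and CCAAT in 37.4% of 32851 such windows, and TGACCA and TGACAG were present in 13.6% and 19.2%. The printed Bcl11a sequence of 225 bases was 60.4% G or C and the printed Bcl11b sequence of 62 bases 41.9%. The median of the windows was 52.7%, taken over their full 300 bases, so it is not a like measure.

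Recovered reads per library ran from 8912251 to 20619153. Some libraries stood apart or went against their labels. Hoxa2 was not lower in PA2 labelled Hoxa2-/-: its mean ran from 28.7 ± 8.41 CPM (SD, n = 4) at E9.0 to 132 ± 15.7 CPM (n = 3) at E10.5, against 22.3 ± 1.40 (n = 4) and 58.3 ± 4.52 CPM (n = 3) in wildtype. The deleted part of the gene is not given, so these embryos are called labelled Hoxa2-/- throughout. The 24 wildtype libraries taken at E10.5, E9.5 or E9.0 did not overlap the other 44 libraries in 19 genes, none of which was Bcl11a or Bcl11b. Comparisons of the labels at those 3 stages, and of wildtype E10.0 with its neighbouring stages, cross this division, so the label or stage and the division cannot be told apart there. The embryo labelled Hoxa2-/- E9.5 number 4 also stood apart from its stage, and values are given with and without it.

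Arch ectomesenchyme markers (Prrx1, Prrx2, Twist1, Dlx2, Dlx5, Alx1, Alx4, Msx1 and Pdgfra) were detected in all 68 libraries, with a median summed level of 585 CPM at E9.0 and 944 CPM at E10.5. These genes did not move one way. The medians of Prrx2 (150.7 to 96.6 CPM), Twist1, Dlx2 and Alx1 were lower at E10.5. Those of Prrx1 (60.0 to 168.5 CPM), Dlx5, Alx4, Msx1 and Pdgfra were higher. Other lists moved with the stage beside the paralogs. The 6 macrophage markers summed to a median of 0.694 CPM at E9.0 (range 0.095 to 5.93), 1.60 CPM at E9.5, 6.94 CPM at E10.0 and 13.7 CPM at E10.5 (range 5.47 to 22.04). Of these, 6 were higher at E10.5 than at E9.0 in PA1 labelled Hoxa2-/- and 5 in PA2 by the limma test given below. Over all genes 14.8% and 15.8% were higher in these comparisons. Adgre1, a defining macrophage gene, was at 0 in 32 of 68 libraries and Ptprc in 11. Of 6 lymphoid markers only Ebf1 and Flt3 have a row in the table, and Flt3 did not exceed 0.58 CPM. The 8 neuronal markers with a row had a median sum of 54.7 CPM at E9.0 and 55.6 CPM at E10.5 over both arches. The arches went different ways. In PA2 the median went from 156.6 to 85.0 CPM in wildtype and from 159.1 to 68.2 CPM with the label Hoxa2-/-. In PA1 it went from 39.2 to 44.0 CPM and from 45.1 to 41.5 CPM. Neurod1 was at 0 in 18 libraries and Neurog1 in 31. Erythroid sums had a median of 2758 CPM at E9.0 and 6774 CPM at E10.5. By gene, the median log2 difference between these stages was 0.85 in PA1 and -0.79 in PA2 of wildtype. With the label Hoxa2-/- it was 1.57 and 0.25. The medians of Klf1 (12.2 to 12.1 CPM) and Gata1 (7.93 to 7.83 CPM) hardly moved, and those of the other erythroid genes were higher at E10.5. Epithelial sums went from 901 to 451 CPM. The epithelial genes did not move one way. The medians of Epcam, Cdh1, Krt8, Krt18 and Esrp1 were lower at E10.5. Those of Trp63 (47.2 to 89.9 CPM), Krt5 (0.17 to 2.72 CPM) and Krt14 (3.88 to 8.125 CPM) were higher. The part of these cells in the levels below was not tested, and in such mixed tissue fewer cells of a type and less RNA per cell cannot be told apart.

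Bcl11a was near the limit of detection at E9.0. Levels are in CPM, read counts scaled to the library size by the authors, and the values of a group are listed by embryo number. In PA1 labelled Hoxa2-/- the 4 libraries of E9.0 read 0.08, 0.20, 0 and 0.69 CPM, which came from 15 reads in all, and 3 of them held no more than 3 reads. In PA2 with that label they read 0.17, 0.41, 0.19 and 0.37 CPM from 13 reads. Wildtype PA1 read 0.42, 0.70, 0.05, 0.69 and 0.49 CPM, and wildtype PA2 read 0.15, 0.69, 0.39 and 0.22 CPM. The ranges of the 4 groups overlapped at this stage, and none of the 17 libraries reached 1 CPM.

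Bcl11b, the paralog, was also low at E9.0, with its lowest values in PA1. PA1 labelled Hoxa2-/- read 0.15, 0.46, 0.40 and 0.32 CPM, and wildtype PA1 read 0.16, 0.43, 0.31, 0.62 and 0.39 CPM. PA2 labelled Hoxa2-/- read 1.19, 0.66, 0.38 and 0.92 CPM, and wildtype PA2 read 0.82, 1.18, 1.43 and 0.70 CPM. All 4 wildtype PA2 libraries lay above all 5 wildtype PA1 libraries. The share of all genes whose libraries lie apart in this way was not counted. The limma test given below did not call Bcl11b between these groups (adjusted p = 0.33), while it called 18.7% of all genes. With the label Hoxa2-/- the arches overlapped.

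At E9.5 the levels were low in most embryos and several times higher in a few. Bcl11a in PA1 labelled Hoxa2-/- read 1.06, 1.82, 2.54, 16.3 and 2.99 CPM, and in PA2 0.21, 1.72, 1.02, 13.1 and 2.15 CPM. Bcl11b read 0.59, 0.79, 0.56, 9.26 and 2.17 CPM in PA1 and 1.03, 1.23, 2.54, 10.9 and 2.22 CPM in PA2 of the same embryos. Embryo number 4 was the highest of its group for both genes in both arches. Wildtype Bcl11a read 2.55, 2.11, 0.34, 1.92 and 6.30 CPM in PA1, and 0.65, 0.41, 0.81 and 5.55 CPM in PA2 of numbers 1, 2, 3 and 5. Wildtype Bcl11b read 1.35, 1.14, 0.41, 0.56 and 3.33 CPM in PA1 and 1.26, 1.74, 1.52 and 4.92 CPM in PA2. Here number 5 was the highest for both genes in both arches.

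At E10.0 both genes were at 6.96 CPM or more in every library. Bcl11a in PA1 labelled Hoxa2-/- read 18.5, 29.8, 18.3, 19.2 and 15.5 CPM, and in PA2 13.7, 27.3, 16.8, 19.3 and 14.5 CPM. Bcl11b read 12.1, 19.0, 12.2, 16.5 and 12.4 CPM in PA1 and 13.3, 22.8, 12.3, 12.9 and 11.6 CPM in PA2. Number 2 was the highest in all 4 sets. Wildtype Bcl11a read 33.9, 12.6, 26.6, 16.1 and 15.4 CPM in PA1 and 27.0, 7.07, 20.2, 14.8 and 14.0 CPM in PA2. Wildtype Bcl11b read 24.2, 8.56, 13.7, 9.57 and 8.53 CPM in PA1 and 21.1, 6.96, 10.9, 8.19 and 8.84 CPM in PA2. Wildtype numbers 1 and 3 were above the others of their group for both genes in both arches.

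At E10.5 the levels were the highest of the series. Bcl11a in PA1 labelled Hoxa2-/- read 49.9, 35.5 and 41.8 CPM, and in PA2 58.1, 34.3 and 43.0 CPM. Bcl11b read 31.4, 22.3 and 24.4 CPM in PA1 and 39.4, 24.9 and 29.6 CPM in PA2. Within each arch and label, every E10.5 library was above every E10.0 library for both genes, and how common this is among all genes was not counted. Wildtype Bcl11a read 57.2, 67.1 and 60.3 CPM in PA1 and 72.2, 73.3 and 57.9 CPM in PA2. Wildtype Bcl11b read 33.0, 38.0 and 40.3 CPM in PA1 and 27.6, 36.9 and 31.4 CPM in PA2. CPM is not divided by transcript length, so the levels of the paralogs are not compared with each other.

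**Figure D1:**
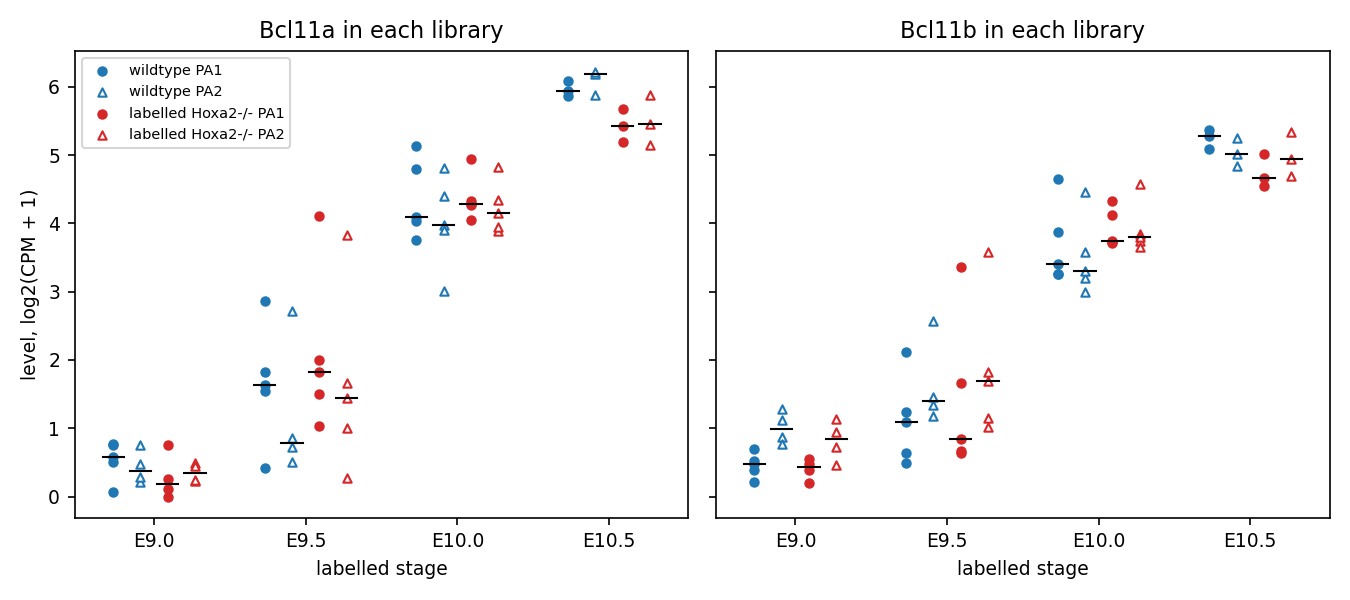
Level of Bcl11a (left) and Bcl11b (right) in each of the 68 libraries as log2(CPM + 1), by labelled stage, with 1 point per library, the colour giving the label, the symbol the arch and the bar the group median. Libraries of E9.0 lie near 0, those of E9.5 spread widely with embryo number 4 of the label Hoxa2-/- at the height of E10.0, and those of E10.5 are the highest of each group.

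Ordered by mean, the 4 Bcl11a groups of each stage stood together, with E9.0 at 0.242 to 0.471 CPM, E9.5 at 1.86 to 4.94 CPM, E10.0 at 16.6 to 20.9 CPM and E10.5 at 42.4 to 67.8 CPM. The 4 Bcl11b groups had means of 0.333 to 1.03 CPM, 1.36 to 3.59 CPM, 11.2 to 14.6 CPM and 26.0 to 37.1 CPM at these stages. Neighbours in this order overlapped within each stage.

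In wildtype arches the differences between stages are those for which the genes were chosen, so they carry no test. Bcl11a differed by 1.12, 2.70 and 1.60 on the log2(CPM + 1) scale over the 3 successive steps in PA1, a total of 5.43, and by 0.77, 2.82 and 2.07 in PA2, a total of 5.67. Bcl11b differed by 0.66, 2.57 and 1.56 in PA1, a total of 4.79, and by 0.62, 1.87 and 1.53 in PA2, a total of 4.02. On this scale the middle step, from E9.5 to E10.0, was the largest of the 3 for each gene in each arch. With a pseudocount of 5 the last step was the larger in PA2, at 1.82 against 1.64 for Bcl11a and 1.24 against 1.10 for Bcl11b. Ranked from the largest rise to the largest fall by the mean over both arches, Bcl11a (5.55) was the first of 3500 genes and Bcl11b (4.41) the third. The ranked genes passed the threshold in both arches, in any direction. They had at least 5 CPM in a compared group and a symbol other than a Gm or Rik name. Of all genes, 42.5% and 36.9% passed in either direction in PA1 and PA2. Slitrk6, a neuronal membrane protein gene, lay between the paralogs with 4.71, and Emx2, a homeobox gene, followed with 4.22.

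Libraries labelled Hoxa2-/- were not used in that choice, and there both genes rose from E9.0 to E10.5 in both arches. In a limma fit over all 68 libraries, on log2(CPM + 1) with Benjamini-Hochberg adjustment over 18428 genes, Bcl11a rose by 5.14 ± 0.50 (SE, 4 against 3 libraries; adjusted p = 6.6e-12) in PA1 and by 5.14 ± 0.50 (adjusted p = 6.4e-12) in PA2. Bcl11b rose by 4.33 ± 0.42 (adjusted p = 6e-12) in PA1 and by 4.17 ± 0.42 (adjusted p = 1.5e-11) in PA2. Over all genes 31.2% passed this test in PA1 (14.8% upward and 16.5% downward) and 30.9% in PA2 (15.8% and 15.1%), so passing it is common, and the median difference of all genes was -0.02 and 0.01. Ranked in the same way from the largest rise to the largest fall, Bcl11a was the first and Bcl11b the second of 2168 such genes. These passed the threshold in both arches, in any direction. Col8a2, a collagen gene, was the third with 4.14.

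The step from E9.5 to E10.0 was the largest of the 3 in these embryos on the log2(CPM + 1) scale, an order that did not hold on other scales. Bcl11a rose by 2.28 ± 0.41 (adjusted p = 0.00033) in PA1 and by 2.59 ± 0.41 (adjusted p = 6.2e-05) in PA2. Bcl11b rose by 2.49 ± 0.35 (adjusted p = 2.8e-06) in PA1 and by 2.07 ± 0.35 (adjusted p = 0.00013) in PA2. Only 4.4% of genes passed at this step in PA1 and 4.57% in PA2. Both genes passed in both arches under every alternative and with any 1 library left out. With edgeR on the recovered reads the step from E9.0 to E9.5 was the largest instead. It was 4.15 against 2.02 in PA1 and 3.63 against 2.32 in PA2 for Bcl11a, and 3.00 against 2.40 and 2.17 against 2.02 for Bcl11b. With a pseudocount of 0.25 the order turned for Bcl11a in PA1 (2.95 against 2.59).

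The step from E9.0 to E9.5 rested on few libraries. Bcl11a rose by 1.81 ± 0.44 (adjusted p = 0.011) in PA1, where 2.85% of genes passed, and by 1.28 ± 0.44 (adjusted p = 0.035) in PA2, where 16.9% passed. Bcl11b rose by 1.04 ± 0.37 (adjusted p = 0.043) in PA2 and its difference of 1.03 ± 0.37 in PA1 did not pass (adjusted p = 0.13). Without the embryo labelled Hoxa2-/- E9.5 number 4 the Bcl11a difference was 1.31 (adjusted p = 0.037) in PA1 and 0.74 (adjusted p = 0.17) in PA2, and that of Bcl11b in PA2 was 0.61 (adjusted p = 0.17). The Bcl11a call in PA1 was also lost without E9.0 number 1 (1.75, adjusted p = 0.054), without E9.0 number 3 (1.72, adjusted p = 0.062) and without the PA1 library of E9.5 number 4 alone (1.31, adjusted p = 0.12). In PA2 it was lost without E9.0 numbers 1, 3 or 4 (1.24, 1.25 and 1.32) or E9.5 numbers 4 or 5 (0.74 and 1.28). The Bcl11b call in PA2 was lost without E9.0 numbers 2, 3 or 4 (1.01, 0.92 and 1.08) or E9.5 numbers 3, 4 or 5 (1.04, 0.61 and 1.08).

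From E10.0 to E10.5 no call was made in the fit over all groups, although the libraries did not overlap. How many of all genes lie apart in this way was not counted. The differences were 1.05 ± 0.48 (adjusted p = 0.42) and 1.27 ± 0.48 (adjusted p = 0.33) for Bcl11a in PA1 and PA2, and 0.82 ± 0.40 (adjusted p = 0.48) and 1.07 ± 0.40 (adjusted p = 0.33) for Bcl11b. Of all genes, 0.298% passed in PA1 and 0.239% in PA2. The difference of the rise from E9.0 to E10.5 between PA2 and PA1 was -0.01 ± 0.71 for Bcl11a (adjusted p = 1) and -0.16 ± 0.59 for Bcl11b (adjusted p = 0.91) in these embryos, where 7.33% of genes passed. In wildtype, where the genes were chosen, it was 0.24 for Bcl11a and -0.76 for Bcl11b, values with no test.

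Within a group, embryos that were high in PA1 were also high in PA2. Because PA1 and PA2 came from the same embryo, each level was taken as its deviation from the group mean on the log2(CPM + 1) scale. Deviations were compared over the 33 embryos with both arches. For all relations of this kind the permutations ran across groups, although the spread of the deviations differed between stages. The same r was not computed for other genes. Bcl11a in PA1 and in PA2 deviated together, with Pearson's r = 0.881 and Spearman's rho = 0.734 (permutation p = 1e-05 for each, the smallest that the resamples can give; adjusted over 6 relations, 1e-05 and 1.5e-05). It had the same sign in both arches in 27 of 33 embryos. Without the 2 embryos farthest from the median r was 0.742. Within wildtype r was 0.774 (n = 16) and within the label Hoxa2-/- 0.952 (n = 17). For Bcl11b r was 0.871 and rho 0.656 (permutation p = 1e-05 and 4e-05, adjusted 1e-05 and 4e-05), with the same sign in 24 of 33 embryos and r = 0.725 without the 2 farthest. Within wildtype r was 0.887 and rho 0.753. Within the label Hoxa2-/- r was 0.863 (permutation p = 0.00033, adjusted 0.00033), while rho was 0.493 (permutation p = 0.046, adjusted 0.046) and the sign was the same in 11 of 17 embryos.

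The paralogs also deviated together in the same library. In PA1 r was 0.921 and rho 0.829 (permutation p = 1e-05 for each, adjusted 1e-05 and 1.5e-05), and r was 0.831 without the 2 farthest embryos. In PA2 r was 0.889 and rho 0.727 (permutation p = 1e-05 and 2e-05, adjusted 1e-05 and 2.4e-05), and r was 0.768 without the 2 farthest. Within wildtype the values were 0.927 in PA1 and 0.876 in PA2, and within the label Hoxa2-/- 0.920 and 0.898. Levels of 1 library share its depth and its embryo, which these relations do not separate.

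**Figure D2:**
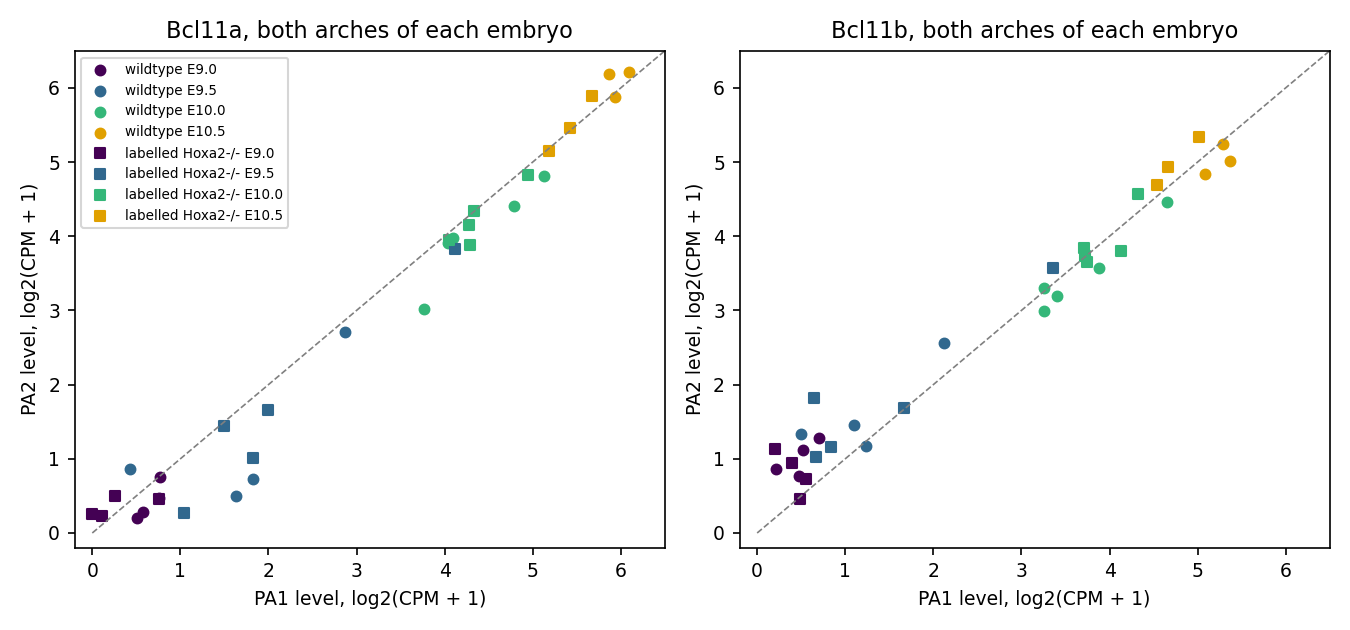
Level of Bcl11a (left) and Bcl11b (right) in PA2 against PA1 of the same embryo, as log2(CPM + 1), with 1 point per embryo for 33 embryos and a dashed line of equal levels. The E9.5 embryo labelled Hoxa2-/- with 16.3 CPM of Bcl11a in PA1 lies among the embryos of E10.0 in both arches.

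A stage score was computed to place each library on the course of development without the paralogs. It is the mean log2(CPM + 1) of 463 genes higher at E10.5 than at E9.0 in both wildtype arches minus that of 331 genes lower there, with Bcl11a and Bcl11b left out. Wildtype PA1 had median scores of -2.03, -1.35, 0.004 and 1.35 at the 4 stages. PA1 labelled Hoxa2-/- had -2.15, -1.13, 0.077 and 0.662, and E10.5 libraries with that label, at 0.285 to 0.971 in both arches, all lay below those of wildtype, at 1.16 to 1.47. Wildtype libraries of E9.0 and E10.5 chose the genes of the score and so lie toward its ends by construction. The same wildtype comparison picked the paralogs, and its embryos are among those compared below, so these relations are not independent of that choice. The r of other genes that rise with the stage was not computed, so the p-values below single out neither paralog. Deviations of the score from the group mean, averaged over both arches of an embryo, followed those of Bcl11a with r = 0.949 and rho = 0.893 (permutation p = 1e-05 for each, n = 33, adjusted 1e-05 and 1.5e-05). The r was 0.900 without the 2 farthest embryos, 0.941 within wildtype and 0.957 within the label Hoxa2-/-. For Bcl11b r was 0.913 and rho 0.833 (permutation p = 1e-05 for each, adjusted 1e-05 and 1.5e-05), and r was 0.817 without the 2 farthest, 0.859 within wildtype and 0.940 within the label Hoxa2-/-.

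The embryos with high levels for their stage also had high scores. The embryo labelled Hoxa2-/- E9.5 number 4 scored -0.146 in PA1 and -0.471 in PA2. The other E9.5 embryos with that label scored -1.56 to -1.05 in PA1 and -2.03 to -1.45 in PA2, and those of E10.0 scored -0.144 to 0.292 and -0.629 to -0.011. Its Bcl11a levels of 16.3 and 13.1 CPM stand beside 15.5 to 29.8 CPM and 13.7 to 27.3 CPM at E10.0. Its Lin28a level, that of an RNA-binding protein gene of early embryos, was 86.5 CPM in PA1, where the other E9.5 embryos with that label had 112 to 166 CPM. Its Hoxa2 level in PA2 was 102 CPM, where the others had 48.6 to 53.5 CPM. Wildtype E9.5 number 5 scored -0.701 in PA1 and -1.19 in PA2, the highest of wildtype E9.5.

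**Figure D3:**
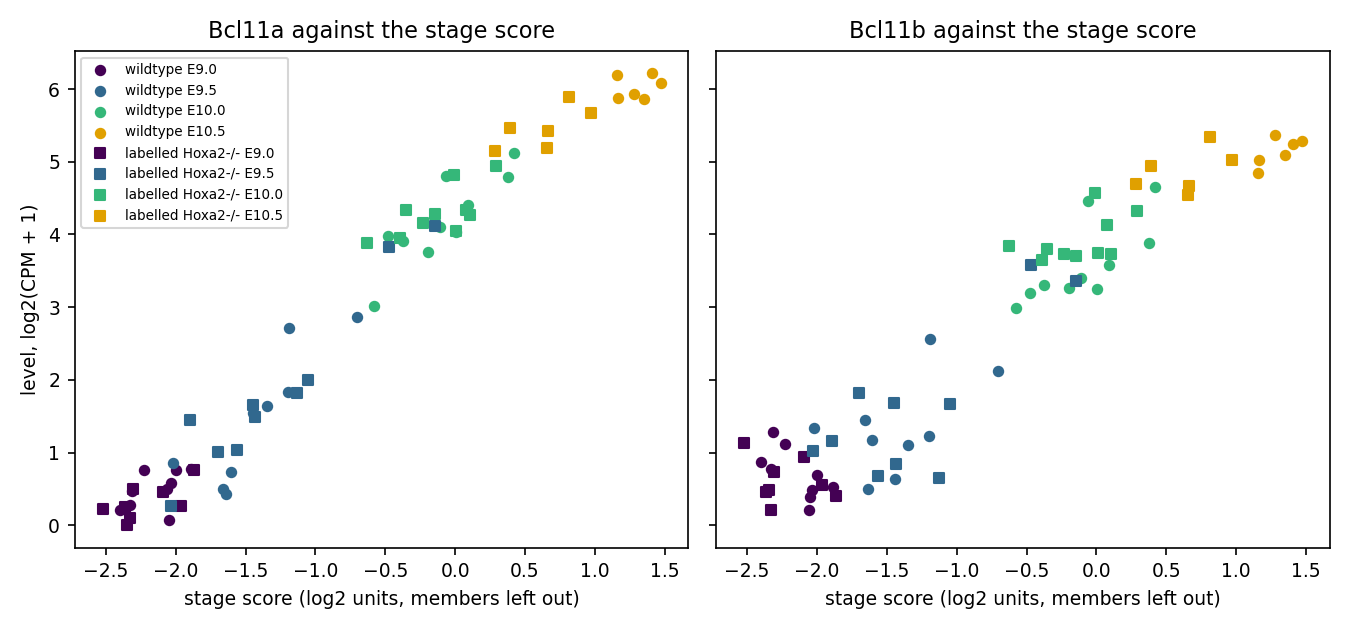
Level of Bcl11a (left) and Bcl11b (right) as log2(CPM + 1) against the stage score, with 1 point per library for 68 libraries, the colour giving the labelled stage and the symbol the label. Points follow 1 course across labels, with the E9.5 libraries at scores of -0.146 and -0.471 lying with those of E10.0.

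The paralogs differed little between the arches, and most of these comparisons did not pass. With the libraries treated as independent, limma over all groups called neither gene in any of the 8 comparisons of PA2 with PA1 (unadjusted p from 0.14, adjusted p from 0.32 to 1, and edgeR called neither). The share of all genes called was 18.7%, 26.3%, 5.94% and 1.52% in wildtype and 24.6%, 9.58%, 4.23% and 1.37% with the label Hoxa2-/- over the 4 stages. The differences within each embryo, with both labels pooled, were then tested by exact two-sided sign-flip permutation with adjustment over all 18428 genes. This test was chosen after the data were seen.

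At E9.5 Bcl11a was lower in PA2 in 8 of 9 embryos, by -0.47 ± 0.52 (SD, n = 9) on the log2(CPM + 1) scale, and did not pass (exact p = 0.035, adjusted 0.094). At E10.0 it was lower in 9 of 10 embryos, by -0.24 ± 0.22 (SD, n = 10; exact p = 0.0039, adjusted 0.021). Bcl11b was higher in PA2 in 7 of 8 embryos at E9.0, by 0.47 ± 0.30 (exact p = 0.016, adjusted 0.058), and in 8 of 9 at E9.5, by 0.41 ± 0.39 (exact p = 0.012, adjusted 0.047). Without embryos Hoxa2-/- E9.5 number 4, wildtype E9.5 number 5 and wildtype E10.0 number 1 the Bcl11b value at E9.5 was 0.43 (adjusted p = 0.15) and the Bcl11a value at E10.0 was -0.23 (adjusted p = 0.036). The same adjusted test was passed by 19.7%, 25%, 28.5% and 0% of all genes at the 4 stages, so passing it is common at the first 3. At E10.5 13.6% had an unadjusted p under 0.05, and 6 embryos cannot give less than 0.031.

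The remaining within-embryo differences did not pass. Bcl11a differed by -0.07 ± 0.25 at E9.0 (exact p = 0.45, adjusted 0.6) and by 0.10 ± 0.15 at E10.5 (exact p = 0.22, adjusted 0.52). Bcl11b differed by -0.09 ± 0.20 at E10.0 (exact p = 0.16, adjusted 0.28) and by 0.02 ± 0.27 at E10.5 (exact p = 0.91, adjusted 0.96). The last value averages labels that lay apart. Bcl11b was lower in PA2 in 3 of 3 wildtype embryos (-0.21 ± 0.16) and higher in 3 of 3 labelled Hoxa2-/- (0.25 ± 0.08), each with an exact p of 0.25, the smallest that 3 embryos can give. The label-by-arch difference in limma was 0.46 ± 0.63 (adjusted p = 1). Set against each other in the same embryo, the PA2 minus PA1 difference of Bcl11b was above that of Bcl11a in 6 of 8 embryos at E9.0, 9 of 9 at E9.5, 8 of 10 at E10.0 and 3 of 6 at E10.5, a description with no test. Most levels behind these differences at E9.0 and E9.5 were below 3 CPM. Markers of other tissue differed between the arches at E9.0, where all 4 heart muscle markers with a row were higher in PA2 with either label. By limma, all 9 erythroid markers were called higher there in wildtype, against 1 with the label Hoxa2-/-. Their median log2 differences were 1.53 and 1.14. The label-by-arch test at E9.0 gave 0 of 9 at an unadjusted p under 0.05, and called 0 of all genes after adjustment. The counts therefore do not show a difference between the labels. The shares of all genes called between the arches at E9.0 are given above. The erythroid sums of wildtype PA2 were uneven, with a median of 4983 CPM and a highest library at 73429 CPM. In wildtype PA1 they ran from 1713 to 7426 CPM. The part of these tissues in the result was not tested.

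**Figure D4:**
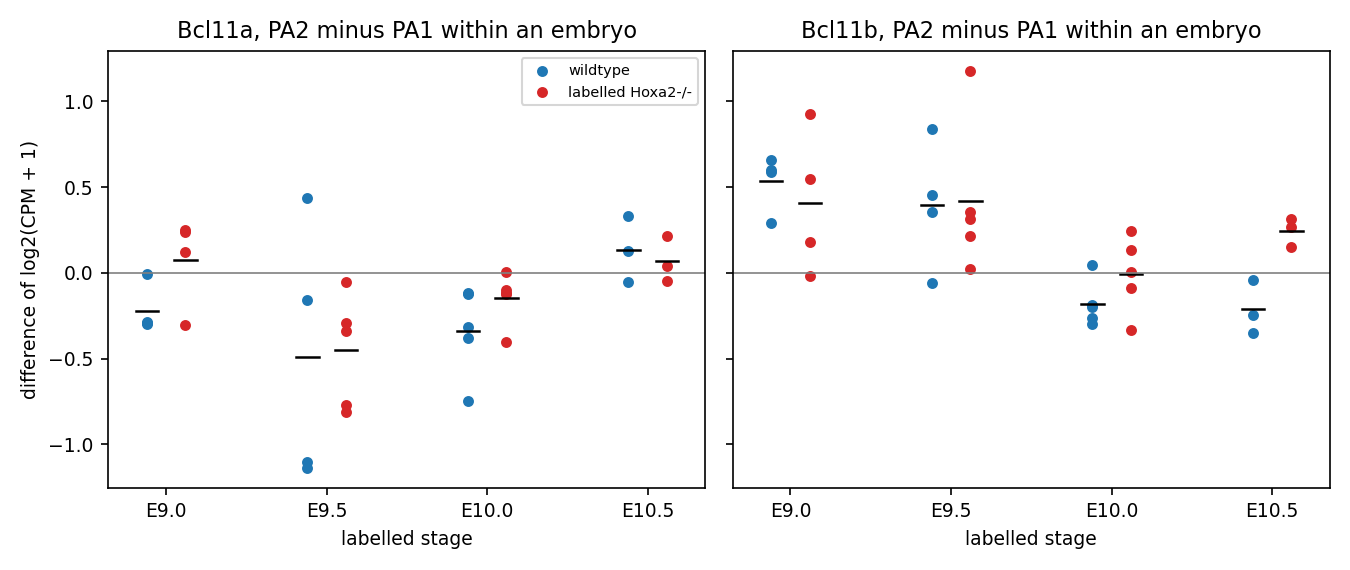
Difference of log2(CPM + 1) between PA2 and PA1 of the same embryo for Bcl11a (left) and Bcl11b (right), with 1 point per embryo, the bar giving the mean and the line at 0 equal levels. At E9.5 Bcl11a is below 0 in 8 of 9 embryos and Bcl11b above 0 in 8 of 9.

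No difference between the labels passed for either gene in the limma fit over all groups (unadjusted p from 0.24, and edgeR called none). At E10.0, where both labels lie on the same side of the division of the libraries, Bcl11a differed by 0.01 ± 0.41 (SE, 5 against 5 libraries; limma adjusted p = 1) in PA1 and by 0.21 ± 0.41 (adjusted p = 0.94) in PA2. Bcl11b differed by 0.24 ± 0.35 (adjusted p = 1) and 0.41 ± 0.35 (adjusted p = 0.8). Of all genes, limma called 0% in PA1 (424 genes had an unadjusted p under 0.05, and edgeR also called 0) and 0.0814% in PA2. Differences larger than these SEs could also go uncalled with 5 libraries in a group, so the SEs are not a limit of detection.

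At E10.5 Bcl11a was 42.4 ± 7.25 CPM (SD, n = 3) in PA1 labelled Hoxa2-/- and 61.5 ± 5.03 CPM in wildtype, without overlap. How many of all genes lie apart in this way was not counted. In PA2 Bcl11a was 45.1 ± 12.05 against 67.8 ± 8.57 CPM, with overlap. The differences of -0.54 ± 0.54 (SE; adjusted p = 0.71) and -0.60 ± 0.54 (adjusted p = 0.54) did not pass, while 3.05% and 10.3% of all genes did. With only the compared groups in the limma fit the PA1 difference passed (adjusted p = 0.045), and that in PA2 did not. Bcl11b was 26.0 ± 4.78 against 37.1 ± 3.72 CPM in PA1 and 31.3 ± 7.38 against 32.0 ± 4.65 CPM in PA2, with differences of -0.50 (adjusted p = 0.67) and -0.05 (adjusted p = 0.97). The stage scores given above were lower with this label at E10.5 as well, on a score whose genes wildtype E10.5 libraries helped to choose, and the comparison crosses the division of the libraries.

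At E9.0 and E9.5 the label differences were -0.25 to 0.44 for Bcl11a and -0.19 to 0.32 for Bcl11b (adjusted p from 0.48 to 0.98), where 2.08% and 23.6% of genes passed in PA1 and 14% and 4.48% in PA2. Without the embryo labelled Hoxa2-/- E9.5 number 4 the E9.5 differences changed sign, to -0.07 and -0.10 for Bcl11a and to -0.16 and -0.21 for Bcl11b in PA1 and PA2. The label difference in PA2 minus that in PA1 lay between -0.14 and 0.46 for the paralogs over the 4 stages and did not pass (adjusted p from 0.99 to 1), where at most 0.038% of genes passed.

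**Figure D5:**
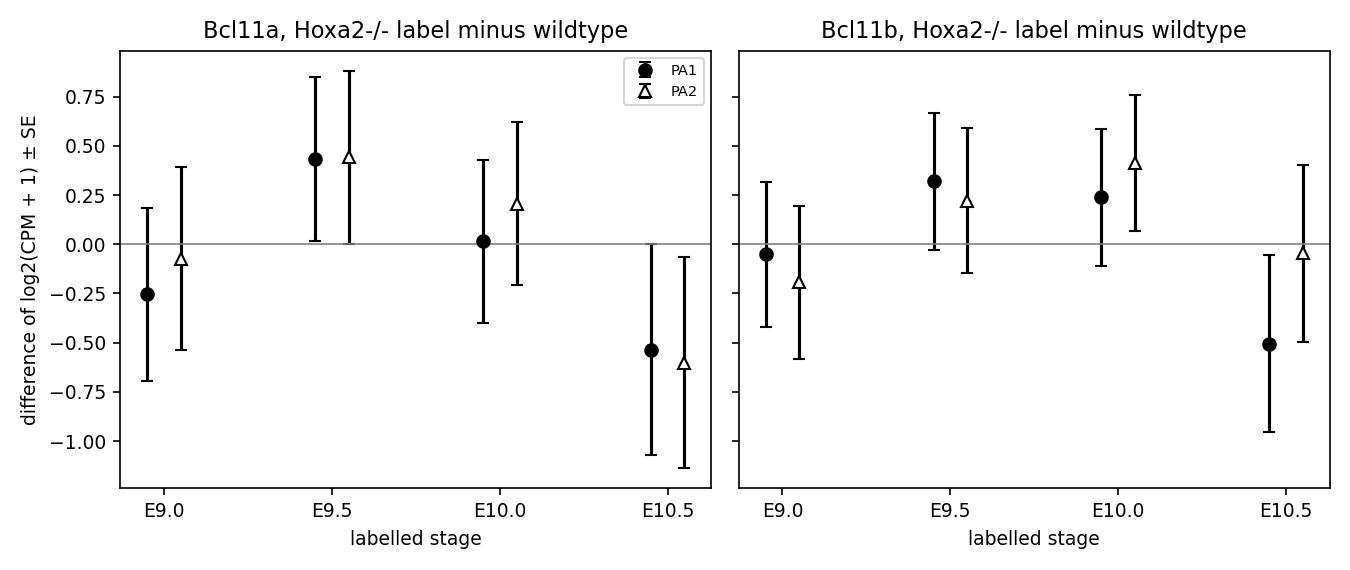
Difference of log2(CPM + 1) between libraries labelled Hoxa2-/- and wildtype for Bcl11a (left) and Bcl11b (right) by labelled stage, with circles for PA1, triangles for PA2 and bars of 1 SE from the limma fit. None passed at an adjusted p of 0.05 in that fit over all groups, and the values run from -0.60 for Bcl11a in PA2 at E10.5 to 0.44 for Bcl11a in PA2 at E9.5.

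Across the 16 group means, genes with the most similar course were found by Pearson's r among 11349 genes with at least 5 CPM in a group. These r are descriptions over groups that share libraries and stage, and carry no p. For Bcl11a they were Coro1a, an actin-binding protein gene of leukocytes (0.994), Bcl11b itself (0.987), Aifm2, an oxidoreductase gene that protects against ferroptosis (0.985), Angptl4, a lipoprotein lipase inhibitor gene (0.982), and Cntln, a centrosomal protein gene (0.981). For Bcl11b they were Nkx3-2, a homeobox gene of skeletal and jaw joint development (0.991), Aifm2 (0.990), Wrap73 (0.988), Bcl11a (0.987) and Slc2a4, the insulin-responsive glucose transporter gene (0.987). Coro1a had a group mean of 1.75 CPM in PA1 labelled Hoxa2-/- at E9.0 and 14.0 CPM at E10.5. Nkx3-2 went from 0.019 to 3.93 CPM in the same groups. Macrophage marker sums also differed over these stages, as given above, and their part in the course of Coro1a was not tested.

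None of the named partners and regulators changed by as much as the paralogs did, which were themselves chosen for the size of their wildtype rise. In the comparison of E10.5 with E9.0 with the label Hoxa2-/-, 5 of 25 tested BAF complex genes were higher and 4 lower in PA1, with a median log2 difference of -0.02, and 13 were higher and 3 lower in PA2, with a median of 0.26. Dpf1, a subunit of the neuronal form of the complex, rose by 1.05 (adjusted p = 4e-05) in PA1 and 1.59 (adjusted p = 6.9e-09) in PA2. Its mean went from 3.23 to 7.68 CPM in PA1. Bcl7c rose by 0.45 and 1.14 (adjusted p = 0.0049 and 2.2e-10), and Smarcc2, a scaffold subunit, by 0.57 and 0.66 (adjusted p = 0.01 and 0.0029). Phf10, a subunit of the polybromo form, fell by 0.46 and 0.34 (adjusted p = 0.0012 and 0.015).

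Of 18 NuRD and corepressor genes, 2 were higher and 6 lower in PA1 with a median of -0.21, and 6 were higher and 3 lower in PA2 with a median of 0.20. Chd3, a nucleosome remodelling subunit of NuRD, rose by 1.23 (adjusted p = 9e-05) and 1.47 (adjusted p = 4.6e-06), from 5.84 to 15.6 CPM in PA1. Mta1, another subunit, fell by 1.39 (adjusted p = 0.00082) and 1.10 (adjusted p = 0.0077), and Rbbp7, a histone-binding subunit, by 0.48 and 0.61 (adjusted p = 8.6e-05 and 1.4e-06). For all genes the shares passing were the 31.2% and 30.9% given above.

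The COUP-TF genes, whose products bind BCL11 proteins, were present throughout, and of 3, 1 was higher and 1 lower in PA1 and 2 were higher and 0 lower in PA2. Nr2f2 rose by 0.40 (adjusted p = 0.039) in PA1 and 1.00 (adjusted p = 5.3e-07) in PA2. Nr2f1 did not pass in PA1 (-0.01, adjusted p = 0.97) and rose by 0.91 (adjusted p = 0.00043) in PA2. Nr2f6 fell by 0.35 (adjusted p = 0.02) in PA1 and differed by -0.26 (adjusted p = 0.099) in PA2. At E10.0 Nr2f1 was the only gene of the 4 partner and regulator lists to differ between the labels, at 26.9 CPM in PA2 labelled Hoxa2-/- and 47.7 CPM in wildtype (-0.81, adjusted p = 0.018).

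Genes of the Lin28 axis, which controls developmental timing and, through Lin28b and Hic2, Bcl11a in red blood cells, did not move one way: 1 of 7 was higher and 4 lower in PA1, against 2 higher and 1 lower in PA2. Over all genes the shares higher and lower were 14.8% and 16.5% in PA1 and 15.8% and 15.1% in PA2. Lin28b itself fell by 0.82 (adjusted p = 0.0019) in PA1 and rose by 0.98 (adjusted p = 0.00021) in PA2. Hic2 did not pass in PA1 (-0.24, adjusted p = 0.25) or in PA2 (0.19, adjusted p = 0.37). Lin28a fell by 2.98 (adjusted p = 2e-13) in PA1, from 185 to 24.8 CPM, and by 2.11 (adjusted p = 3.5e-09) in PA2, from 125.5 to 30.0 CPM. Hmga2, a chromatin protein gene repressed by let-7, rose by 1.06 (adjusted p = 2.1e-05) and 0.58 (adjusted p = 0.017). Of 7 globin genes, some of which are targets of BCL11A in red blood cells, 5 were higher and 0 lower in PA1 (median 1.99). In PA2 limma called 0 of them (median 0.67), with 0 at an unadjusted p under 0.05 and 0 by edgeR. Of the 9 erythroid markers, which share 5 genes with this list, 6 were higher in PA1 and, by each of these counts, 0 in PA2. Their part in the globin values was not tested.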

How the data were processed

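RNA was measured in 68 libraries of PA1 and PA2 from 35 embryos, 33 of which gave both arches. Per the labels' protocols, cDNA was made with SMART-seq v4 and libraries with Nextera XT. Per the submitters' processing notes, bcl2fastq 2.18, TopHat2 2.1.1 and R 3.3.2 were used with mm10. The counting program and strandedness are not given in the sources used here. The authors deposited 1 table of a normalised signal per gene, equal to CPM on scaled library sizes (column totals 926298 to 1051959), and it is called CPM here. All values (100%) were whole multiples of the worth of 1 read within 0.1 read, so read counts were recovered from the deposited values. The amplified cDNA carries no stated molecular identifiers, so counts of reads are not counts of molecules. The plan took the unit for CPM, and no test was changed.

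Groups followed the labels. The members, gene lists and tests were chosen with earlier results of these data known. Genes with at least 1 CPM in at least 3 libraries were kept (18428). The test was that of limma 3.58.1 (R 4.3.3), with log2(CPM + 1) as response, a mean for each of 16 groups, a trended prior, two-sided p-values and Benjamini-Hochberg adjustment at 0.05. Symbols came from GENCODE M21 (21921 of 21948 identifiers). Correlations used 100000 permutations. Named genes are both paralogs, Hoxa2, the nearest ranks, the 5 most similar genes and up to 3 per direction and list past the threshold in both arches. Nr2f1, Nr2f6, Lin28b, Hic2 and marker genes were named after their values were seen. Replicates of a group differed by more than sampling noise in all 116 pairs (chi-square per degree of freedom 6.38 to 107). The series text takes both arches from a single embryo, and same-numbered PA1 and PA2 libraries deviated together (median r 0.347 over 33 embryos, of which 30 exceeded 0.1, against -0.124 over 116 other pairs). Alternatives were 0.25 or 5 as pseudocount, median-of-ratios scaling, a minimum of 5 CPM or none, only the compared groups, the embryo as a block, edgeR 4.0.16 on the recovered reads, each library left out, and, added after seeing the data, 3 embryos left out, the within-embryo test and the stage score. The scripts were tested on simulated data.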

Additional observations from a re-analysis of the deposited data

Results flagged for a closer look

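In groups of 4 or 5 libraries (24 sets tested over both genes), the highest library was set apart from the others by Dixon's criterion in 9 sets. The criterion was taken on CPM, not on the log2(CPM + 1) scale of the tests. Its chance rate of about 1 in 20 holds for normal values and independent sets. These sets share embryos over both arches and both genes, so the 9 sets cannot be weighed against that rate. All 9 were high values. The PA1 and PA2 libraries of the embryo labelled Hoxa2-/- E9.5 number 4 account for 4 of them: Bcl11a at 16.3 CPM in PA1 (the others 1.06 to 2.99) and 13.1 CPM in PA2 (the others 0.21 to 2.15), and Bcl11b at 9.26 CPM in PA1 (the others 0.56 to 2.17) and 10.9 CPM in PA2 (the others 1.03 to 2.54). In wildtype E9.5 number 5, PA2 held 5.55 CPM of Bcl11a (the others 0.41 to 0.81) and 4.92 CPM of Bcl11b (the others 1.26 to 1.74). In the embryo labelled Hoxa2-/- E10.0 number 2, Bcl11a was 29.8 CPM in PA1 (the others 15.5 to 19.2) and Bcl11b 22.8 CPM in PA2 (the others 11.6 to 13.3). Bcl11b was 21.1 CPM in PA2 of wildtype E10.0 number 1 (the others 6.96 to 10.9).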

How the results depend on the processing

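The rises from E9.5 to E10.0 and from E9.0 to E10.5 with the label Hoxa2-/- passed under all alternatives and left-out libraries, for both genes in both arches. The largest adjusted p was 0.048 for the first and 3.4e-05 for the second. Their sizes moved widely with the scale. From E9.5 to E10.0 Bcl11a was 1.496 to 2.79 in PA1 and 1.57 to 3.13 in PA2, and Bcl11b 1.43 to 3.04 and 1.27 to 2.50. From E9.0 to E10.5 Bcl11a was 3.17 to 7.23 and 3.22 to 7.26, and Bcl11b 2.53 to 6.26 and 2.63 to 5.29. Taking the embryo as a replicate block changed no call (Bcl11a from E9.0 to E9.5 in PA1 had adjusted p = 0.0043), and no filter, the filter of 5 CPM and median-of-ratios scaling changed none. Levels near 1 CPM limit the step from E9.0 to E9.5, which moved most.

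The pseudocount scales differences of low levels. At 0.25 the Bcl11b difference from E9.0 to E9.5 in PA1 labelled Hoxa2-/- passed (1.62), and the Bcl11a label-by-arch difference at E9.5 reversed to -0.0044. At 5 it was -0.019, the calls from E9.0 to E9.5 were lost for Bcl11a (0.75 in PA1, 0.55 in PA2) and Bcl11b (0.47 in PA2), and the difference of rises between the arches with that label reversed (0.0513 and 0.10). Wildtype Bcl11a differences in PA1 were 1.74, 3.15 and 6.53 at 0.25 and 0.44, 1.74 and 3.60 at 5 for the first step, the second step and the total. In PA2 they were 1.26, 3.48 and 6.87, and 0.30, 1.64 and 3.76. For Bcl11b they were 1.12, 3.18 and 5.92, and 0.22, 1.44 and 2.96 in PA1, the total in PA2 was 4.68, and at 5 the second step and total in PA2 were 1.10 and 2.61.

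When the fit held just the compared groups, 3 values passed: Bcl11b between the wildtype arches at E9.0 (0.55), Bcl11a between labels in PA1 at E10.5 (-0.54) and Bcl11a from E10.0 to E10.5 in PA1 (1.05). The wildtype Bcl11b rise by arch (-0.76) is read as a description in either fit. From E9.0 to E9.5 this fit called 19 and 5 genes in PA1 and PA2, where the shares over all groups were 2.85% and 16.9%, and the calls were lost (Bcl11a 1.81 and 1.28, Bcl11b 1.04). On the recovered reads edgeR called 1044 and 807 genes from E9.5 to E10.0 in PA1 and PA2 labelled Hoxa2-/-, against 811 and 843. With edgeR the first step was 4.15 and 3.63 for Bcl11a in PA1 and PA2, the Bcl11b step in PA1 passed (3.00), and values reversed for Bcl11a between labels in PA1 at E10.0 (-0.0431) and its rise by arch (0.0235), and for Bcl11b between arches at E10.0 (0.0134). Without the embryo labelled Hoxa2-/- E9.5 number 4, label differences at E9.5 reversed for Bcl11a (-0.0724, -0.10, by arch -0.0308) and Bcl11b (-0.16, -0.21), and the PA2 calls were lost (0.74 and 0.61). Without all 3 embryos the Bcl11a step in PA2 did not pass (0.74), the Bcl11b label-by-arch value at E9.5 was 0.0125, and its within-embryo value at E9.5 did not pass (0.43). Beyond the pseudocount, the cause of these changes was not tested.

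With 1 library left out in turn, values ranged as follows. The step from E9.0 to E9.5 with the label Hoxa2-/- was 1.31 to 2.07 (Bcl11a, PA1), 0.74 to 1.63 (Bcl11a, PA2) and 0.61 to 1.24 (Bcl11b, PA2). Label differences of Bcl11a were -0.15 to 0.0364 (PA2, E9.0), -0.0724 to 0.73 and -0.10 to 0.95 (E9.5), and -0.14 to 0.21 and -0.0467 to 0.40 (E10.0). Those of Bcl11b were -0.11 to 0.0178 (PA1, E9.0), -0.16 to 0.57 and -0.21 to 0.53 (E9.5), and -0.22 to 0.10 (PA2, E10.5). Arch differences of Bcl11a with that label were -0.02 to 0.23 (E9.0), -0.998 to 0.0524 (E9.5) and -0.13 to 0.25 (E10.5). Those of Bcl11b were -0.0141 to 0.90 (E9.5), -0.17 to 0.0926 (E10.0) and, in wildtype, -0.42 to 0.0599 (E10.0). Label-by-arch differences were -0.54 to 0.51, -0.0611 to 0.39 and -0.26 to 0.11 for Bcl11a at E9.5, E10.0 and E10.5, and -0.53 to 0.38 and -0.0669 to 0.41 for Bcl11b at E9.5 and E10.0. The Bcl11a rise by arch was -0.20 to 0.17.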
